A study of Mus musculus with 8 samples.

Results

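The interferon-stimulated genes followed here are 51 mouse genes that interferons are known to induce, among them the Ifit, Oas, Mx, Gbp and Irg families, and they were chosen by symbol. The list was drawn up with earlier results of these data known. Shares of members set against all probe sets therefore describe these arrays and are no independent test. A probe set was named here for 46 of them, 1 each, out of 22206 probe sets compared on the array. The members Ifi44, Gbp5, Ifi47, Tgtp1 and Ddx60 had no probe set that was named, and no value is given for them. Type I interferons bind a receptor on nearly every cell and act through the kinases Jak1 and Tyk2, which activate a transcription factor that holds Stat2 and Irf9. That factor binds the interferon-stimulated response element in the promoters of antiviral genes. In macrophages these genes carry antiviral and antibacterial defence, and IL-4 is known for an opposing, alternative state of activation.

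RNA of RAW264, a mouse macrophage-like cell line, was hybridized to 8 Clariom S arrays, 1 array for each clone and treatment. The arrays form 4 groups, Gpr137b -/- cells (KO) with IL-4, KO cells without IL-4, Gpr137b +/+ cells (WT) with IL-4 and WT cells without IL-4. Each group held 2 clones, called KO1 and KO2 or WT1 and WT2, and all 4 clones came from the CRISPR/Cas9 editing of this line. The IL-4 treatment lasted 48 h and came with a change to a medium without serum that held albumin. Whether the untreated arrays stand for cells in that medium is not stated in the sources used here, so the effects of IL-4 and of medium cannot be told apart. Since each genotype is 2 clones, a difference between genotypes and one between clones cannot be told apart either.

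Values are log2 of the deposited intensity, called log2 signal, and they compare a probe set with itself and never with another. Each array had 23 antigenomic control probe sets, and their 95th percentile served as its background. This background was a log2 signal between 6.64 and 6.78, and between 42.8% and 43.8% of probe sets lay above it. For the 5222 negative controls, the middle value of an array lay between 6.63 and 6.73. That value exceeded the background on the WT1, WT2 and KO2 arrays without IL-4 and was below it on the others. Being above background is therefore a lenient mark, and a signal close to it is no sure sign of expression. All 9 macrophage markers with a named probe set lay above background on all 8 arrays, and the 11 markers of T cells, B cells, fibroblasts and epithelium lay below it on all 8. Of 2 markers of plasmacytoid dendritic cells, which make interferon, Siglech lay below background on all 8 arrays and Tcf4 far above it, with log2 signals between 15.19 and 15.50 on KO arrays and between 14.62 and 15.16 on WT arrays. Tcf4 is a transcription factor of many cell types, and its part in the results was not tested. Gpr137b itself gave log2 signals between 10.00 and 11.12 on KO arrays and between 10.32 and 11.93 on WT arrays. These ranges overlap, the position of its probes relative to the edit is not known here, and so this signal does not check the labels. Groups were compared with limma over all probe sets, and a call is an adjusted p under 0.05. The p-values measure only the spread between these arrays and clones.

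Of the 46 members, 31 were above background on all 8 arrays, 9 on some arrays and 6 on no array. The 6 were Oasl1, Mx1, Gbp2, Gbp3, Iigp1 and Cxcl10. Their values lie in the noise of the array, and fold changes are not given for them. In these bulk RNA samples, fewer cells that express a gene and less RNA of it per cell cannot be told apart.

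The members set clone WT1 apart from the other 3 clones. The median log2 signal over the 46 members was 9.41 in KO2, 9.58 in KO1, 10.17 in WT2 and 8.08 in WT1 with IL-4, and 9.82 in KO2, 10.00 in KO1, 10.05 in WT2 and 7.97 in WT1 without IL-4. The median over all probe sets lay between 5.94 and 6.08 on every array. WT1 was the lowest of the 4 clones for 40 members with IL-4 and for 44 without IL-4. Both arrays of WT1 lay below the other 6 arrays for 34 of 46 members (73.9%), against 5.54% of all probe sets. Both arrays of WT1 lay above the other 6 for no member, against 6.05% of all probe sets. WT2 was the highest clone for 29 members with IL-4 and for 24 without IL-4, and both its arrays lay above the other 6 for 17 members (37.0%), against 7.36% of all probe sets. For Samhd1 alone both WT2 arrays lay below the other 6 (9.31% of all probe sets). Both KO1 arrays lay above the others for 2 members, Irf7 and Oasl1, and both KO2 arrays for 1, Lgals3bp, against 3.4% and 3.21% of all probe sets. Neither KO clone lay below the others for any member, against 3.61% of all probe sets for KO1 and 2.91% for KO2. The background and the share of probe sets above it on the WT1 arrays lay within the range of the other 6 arrays. In the paper's raw mean intensities before normalization, WT1 without IL-4 was the lowest of all arrays and WT1 with IL-4 the highest. The part of this in the values was not tested.

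**Figure D1:**
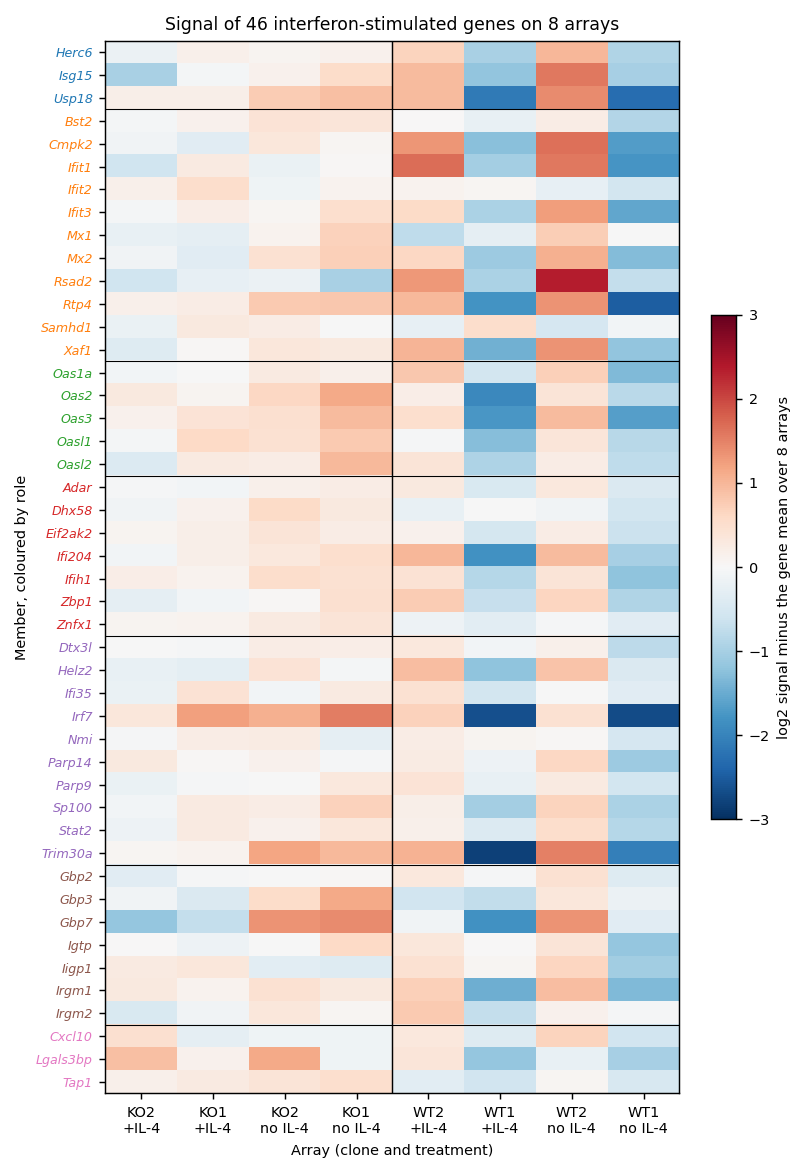
Log2 signal of 46 interferon-stimulated genes (rows, grouped by role) on 8 arrays (columns, KO clones left of WT clones), shown as the difference from each gene's mean over the 8 arrays. Both WT1 columns are blue for most genes, and both WT1 arrays lay below the other 6 for 34 of 46 genes.

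Between the wild-type clones, 24 of 46 members (52.2%) were called higher in WT2 than in WT1, against 0.928% of all probe sets, and no member was called lower, against 1.04% of all probe sets. Of the 46 members 45 had a positive difference. The median log2 difference was 1.19 over the members, 1.41 over the 31 above background on all arrays, and 0.01 over all probe sets. Of the 24 called members, 16 were measured above background in both clones and 1, Oasl1, was below background in both. The other 7 were above background only in WT2, and of these Isg15 and Rsad2 passed it on 1 array alone. The members called were 3 of 3 of the ISG15 system, 5 of 5 of the Oas family, 7 of 11 antiviral effectors, 4 of 10 genes of transcription and signalling, 3 of 7 RNA and DNA sensors, 2 of 7 GTPases and 0 of 3 genes of secretion and antigen processing. They lay on 11 chromosomes, with at most 5 on one, where the 46 members lie on 15. Each clone stands here with its array without IL-4 and its array with IL-4, so these p-values compare 2 clones and no wider population.

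**Figure D2:**
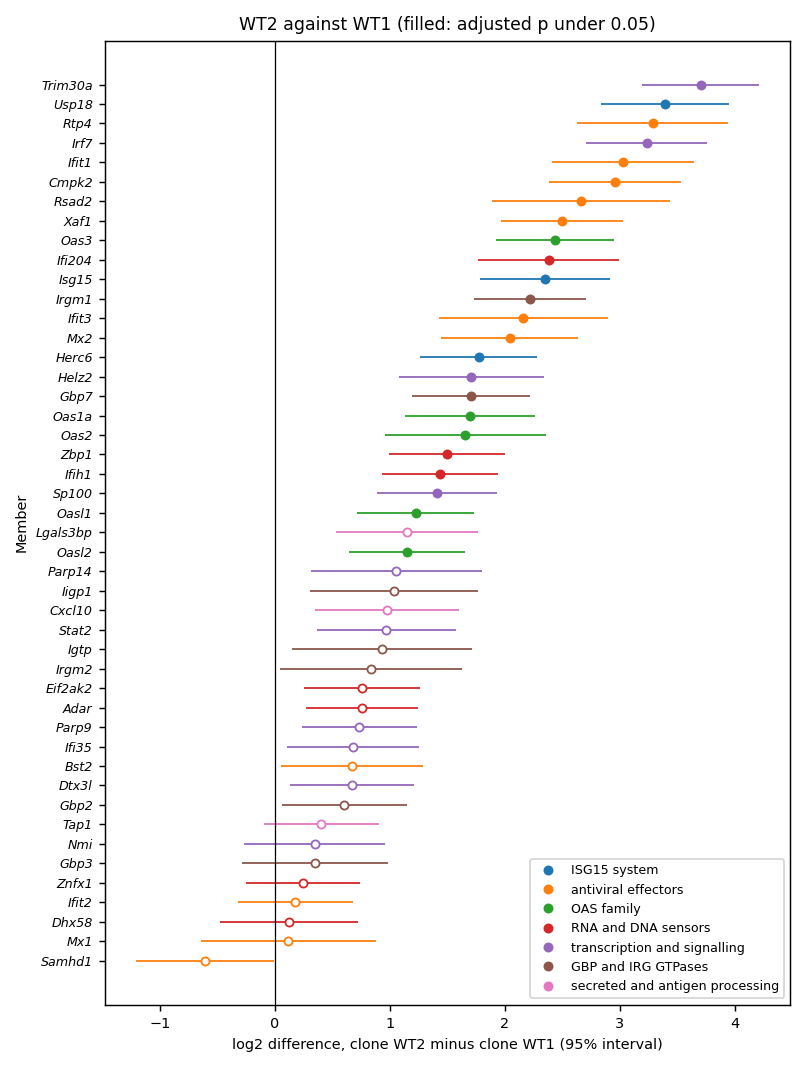
Difference in log2 signal, WT2 minus WT1, for 46 members ordered by size, with 95% intervals from limma before any adjustment. Filled points mark the 24 called members, colours mark roles, members below background are drawn too, and only Samhd1 lies below 0.

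The ISG15 system conjugates the ubiquitin-like protein Isg15 to other proteins and removes it again. Usp18, the protease that removes Isg15 and also dampens the interferon receptor, gave log2 signals of 12.94 in KO2, 12.94 in KO1, 13.73 in WT2 and 10.65 in WT1 with IL-4, and 13.54 in KO2, 13.67 in KO1, 14.20 in WT2 and 10.50 in WT1 without IL-4. Its WT1 arrays lay far below the other 6, with no overlap. The WT2 minus WT1 difference was 3.39 ± 0.24 (SE), 10.5-fold, with an adjusted p of 0.00274 from limma. Herc6, the mouse ligase that attaches Isg15, gave log2 signals of 9.50 in KO2, 9.82 in KO1, 10.34 in WT2 and 8.69 in WT1 with IL-4, and 9.74 in KO2, 9.79 in KO1, 10.66 in WT2 and 8.77 in WT1 without IL-4. Again both WT1 arrays were the lowest and both WT2 arrays the highest, and WT2 was 3.41-fold higher than WT1 (adjusted p = 0.0132 from limma). Isg15 was above background on 1 array only, WT2 without IL-4, with log2 signals of 4.77 in KO2, 5.69 in KO1, 6.70 in WT2 and 4.57 in WT1 with IL-4, and 5.89 in KO2, 6.31 in KO1, 7.32 in WT2 and 4.75 in WT1 without IL-4. It was called higher in WT2 than in WT1 (adjusted p = 0.00777 from limma), and no fold is given, since its WT2 array with IL-4 was below background too.

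The Isg15 promoter holds an element that stood in 21 of 40 member promoters. The core letters of the interferon-stimulated response element, GAAA, any 2 bases and GAAA again, were searched on both strands of the RefSeq promoters of build GRCm38.p6, which run from 250 bases before to 50 bases after each gene start. Windows of Isg15 and of 4 other members called between the wild-type clones are shown 5′ to 3′ on the strand of the gene, with the element in capitals. Where the capitals begin with TTTC, the element lies on the opposite strand.
Isg15 (chr4:156200856-156200915, minus strand): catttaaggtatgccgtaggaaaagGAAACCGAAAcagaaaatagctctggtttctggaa
Ifit1 (chr19:34640779-34640838, plus strand): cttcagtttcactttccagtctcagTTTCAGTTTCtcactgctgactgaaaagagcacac
Oas3 (chr5:120777700-120777759, minus strand): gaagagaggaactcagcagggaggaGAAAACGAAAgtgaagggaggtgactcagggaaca
Gbp7 (chr3:142530258-142530317, plus strand): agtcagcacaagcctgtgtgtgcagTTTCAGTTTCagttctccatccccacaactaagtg
Rsad2 (chr12:26456538-26456597, minus strand): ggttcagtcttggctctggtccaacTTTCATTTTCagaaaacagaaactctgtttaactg

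The capitals begin at −72 in Isg15, −85 in Ifit1, −75 in Oas3, −53 in Gbp7 and −120 in Rsad2, counted from the gene start. In Isg15 and Ifit1 further copies overlap or neighbour the one in capitals. Of the 40 members with a promoter in the table, 21 (52.5%) held the letters, against 1079 of 27025 genes (3.99%). Among members called between the wild-type clones 10 of 18 (55.6%) held them, and among measured members that were not called 8 of 17 (47.1%). The element of interferon gamma, TTCNNNGAA on either strand, stood in 12 of 40 member promoters (30.0%), against 9.55% of all genes. It stood in 2 of 18 called members (11.1%) and in 8 of 17 that were not called (47.1%). Overlap between both kinds of match was not counted. These matches describe the letters in the window, and binding was not measured.

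All 5 members of the Oas family, the oligoadenylate synthetases that activate an RNA-cutting enzyme and their relatives, were called higher in WT2. Oas3 gave log2 signals of 10.20 in KO2, 10.48 in KO1, 10.57 in WT2 and 8.32 in WT1 with IL-4, and 10.55 in KO2, 11.01 in KO1, 11.02 in WT2 and 8.41 in WT1 without IL-4. Both WT1 arrays lay below the other 6, with no overlap, and WT2 was 5.40-fold higher than WT1 (adjusted p = 0.00528 from limma). Oas1a gave log2 signals of 9.84 in KO2, 9.92 in KO1, 10.74 in WT2 and 9.37 in WT1 with IL-4, and 10.19 in KO2, 10.08 in KO1, 10.63 in WT2 and 8.61 in WT1 without IL-4. Its WT1 arrays were again the lowest, and the WT2 minus WT1 difference was 1.70 ± 0.24 (SE), 3.24-fold (adjusted p = 0.0214 from limma). For Oas2 the log2 signals were 10.41 in KO2, 10.19 in KO1, 10.31 in WT2 and 8.19 in WT1 with IL-4, and 10.73 in KO2, 11.26 in KO1, 10.49 in WT2 and 9.30 in WT1 without IL-4. Here the WT1 array with IL-4 was the lowest and the KO1 array without IL-4 the highest, and WT2 was 3.15-fold higher than WT1 (adjusted p = 0.042 from limma). Oasl2 crossed the background, with log2 signals of 6.57 in KO2, 7.25 in KO1, 7.37 in WT2 and 6.06 in WT1 with IL-4, and 7.21 in KO2, 7.95 in KO1, 7.21 in WT2 and 6.22 in WT1 without IL-4. WT1 lay below background on both arrays, and WT2 was at least 1.51-fold higher (adjusted p = 0.0472 from limma). Oasl1 was below background throughout, with log2 signals of 4.85 in KO2, 5.51 in KO1, 4.88 in WT2 and 3.62 in WT1 with IL-4, and 5.37 in KO2, 5.70 in KO1, 5.27 in WT2 and 4.08 in WT1 without IL-4. It was called at an adjusted p of 0.0405 from limma, and at 0.0524 after quantile normalization it was not. Probes of the Oas genes, which are close relatives, may share part of their signal, which was not tested.

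Among the antiviral effectors, 7 of 11 were called higher in WT2 and the others were Ifit2, Mx1, Bst2 and Samhd1. Rtp4, a transporter protein known to act against viruses in mice, gave log2 signals of 9.33 in KO2, 9.40 in KO1, 10.14 in WT2 and 7.37 in WT1 with IL-4, and 9.96 in KO2, 9.99 in KO1, 10.52 in WT2 and 6.71 in WT1 without IL-4. Both WT1 arrays lay far below the other 6 and the one without IL-4 was at the background, and WT2 was 9.74-fold higher than WT1 (adjusted p = 0.00451 from limma). Xaf1, a gene linked to cell death, gave log2 signals of 9.90 in KO2, 10.32 in KO1, 11.31 in WT2 and 8.86 in WT1 with IL-4, and 10.65 in KO2, 10.58 in KO1, 11.65 in WT2 and 9.11 in WT1 without IL-4. Its order of clones was WT2 above both KO clones above WT1 on all arrays, and WT2 was 5.64-fold higher than WT1 (adjusted p = 0.00528 from limma). Mx2, a dynamin-like GTPase that blocks viruses, gave log2 signals of 7.92 in KO2, 7.69 in KO1, 8.65 in WT2 and 6.93 in WT1 with IL-4, and 8.50 in KO2, 8.75 in KO1, 9.09 in WT2 and 6.72 in WT1 without IL-4. WT2 was 4.12-fold higher than WT1 (adjusted p = 0.0133 from limma), and under each treatment the KO arrays lay between the WT clones.

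Ifit1 and Ifit3, which bind foreign RNA or partner a protein that does, were below background on both WT1 arrays. Ifit1 gave log2 signals of 6.03 in KO2, 6.89 in KO1, 8.30 in WT2 and 5.60 in WT1 with IL-4, and 6.43 in KO2, 6.67 in KO1, 8.21 in WT2 and 4.85 in WT1 without IL-4. Both WT2 arrays and the KO1 array with IL-4 were above background, and WT2 was at least 2.94-fold higher than WT1 (adjusted p = 0.00479 from limma). For Ifit3 the log2 signals were 7.41 in KO2, 7.65 in KO1, 8.02 in WT2 and 6.50 in WT1 with IL-4, and 7.52 in KO2, 7.96 in KO1, 8.70 in WT2 and 5.90 in WT1 without IL-4. All KO and WT2 arrays were above background, and WT2 was at least 3.17-fold higher than WT1 (adjusted p = 0.022 from limma). Probes of Ifit3 and its near copy may share signal, which was not tested. Ifit2, of the same family, differed less between the clones, with log2 signals of 8.0 in KO2, 8.37 in KO1, 7.96 in WT2 and 7.90 in WT1 with IL-4, and 7.73 in KO2, 7.94 in KO1, 7.59 in WT2 and 7.30 in WT1 without IL-4. WT1 was its lowest clone under both treatments, and the WT2 minus WT1 difference was 0.18 (95% interval −0.33 to 0.68, adjusted p = 0.774 from limma).

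Cmpk2, a mitochondrial nucleotide kinase, and Rsad2, which makes a chain-terminating nucleotide, are neighbours on chromosome 12. Cmpk2 gave log2 signals of 7.09 in KO2, 6.87 in KO1, 8.54 in WT2 and 5.94 in WT1 with IL-4, and 7.54 in KO2, 7.27 in KO1, 8.86 in WT2 and 5.54 in WT1 without IL-4. WT1 was below background, both KO clones stood just above it and WT2 was the highest, at least 4.00-fold above WT1 (adjusted p = 0.00451 from limma). For Rsad2 the log2 signals were 4.42 in KO2, 4.77 in KO1, 6.31 in WT2 and 4.07 in WT1 with IL-4, and 4.84 in KO2, 4.03 in KO1, 7.37 in WT2 and 4.28 in WT1 without IL-4. It passed the background on 1 array only, WT2 without IL-4, so no fold is given. It was called higher in WT2 than in WT1 (adjusted p = 0.0133 from limma), and all its KO arrays were below background too. Samhd1, which breaks down the building blocks of DNA, was the only member with a negative difference. Its log2 signals were 12.39 in KO2, 12.89 in KO1, 12.34 in WT2 and 13.12 in WT1 with IL-4, and 12.81 in KO2, 12.57 in KO1, 12.07 in WT2 and 12.51 in WT1 without IL-4. WT2 had the lowest signal under both treatments, and the WT2 minus WT1 difference was −0.61 (95% interval −1.20 to −0.01, adjusted p = 0.326 from limma).

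Of the 10 genes of transcription and signalling, Trim30a, Irf7, Helz2 and Sp100 were called higher in WT2. Trim30a, a ring-finger protein known in mice to restrain inflammatory signalling, gave log2 signals of 9.94 in KO2, 9.98 in KO1, 10.92 in WT2 and 7.08 in WT1 with IL-4, and 11.06 in KO2, 10.86 in KO1, 11.38 in WT2 and 7.82 in WT1 without IL-4. The WT1 arrays lay far below the other 6, with no overlap, and the WT2 minus WT1 difference was the largest of any member, 3.70 ± 0.22 (SE), 13.0-fold (adjusted p = 0.00162 from limma). Its probes may share signal with other Trim30 genes, which was not tested. Irf7, the transcription factor that drives interferon alpha genes, gave log2 signals of 10.57 in KO2, 11.46 in KO1, 10.91 in WT2 and 7.57 in WT1 with IL-4, and 11.29 in KO2, 11.76 in KO1, 10.67 in WT2 and 7.54 in WT1 without IL-4. WT1 was again below all other arrays, but here KO1 and not WT2 was the highest clone. WT2 exceeded WT1 9.40-fold (adjusted p = 0.00274 from limma). Helz2, a helicase that serves as a coactivator, gave log2 signals of 9.85 in KO2, 9.78 in KO1, 11.00 in WT2 and 8.86 in WT1 with IL-4, and 10.46 in KO2, 10.01 in KO1, 10.92 in WT2 and 9.63 in WT1 without IL-4. WT2 was the highest clone and 3.27-fold above WT1 (adjusted p = 0.027 from limma), with both KO clones between them. Sp100, a nuclear body protein, gave log2 signals of 14.39 in KO2, 14.75 in KO1, 14.67 in WT2 and 13.46 in WT1 with IL-4, and 14.71 in KO2, 15.18 in KO1, 15.16 in WT2 and 13.54 in WT1 without IL-4. WT1 was the lowest on both arrays and WT2 was 2.66-fold higher than WT1 (adjusted p = 0.0272 from limma).

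The other members of this group were Stat2, Parp9, Parp14, Dtx3l, Ifi35 and Nmi, with WT2 minus WT1 differences between 0.35 and 1.06 that did not pass. Stat2, a subunit of the interferon-activated factor, had log2 signals of 10.57 in KO2, 10.99 in KO1, 10.86 in WT2 and 10.30 in WT1 with IL-4, and 10.85 in KO2, 11.06 in KO1, 11.23 in WT2 and 9.86 in WT1 without IL-4. Both WT1 arrays were the lowest of the 8, and the difference was 0.97 (95% interval 0.36 to 1.57, adjusted p = 0.128 from limma). Parp14, an enzyme that modifies proteins with ADP-ribose, had log2 signals of 8.68 in KO2, 8.43 in KO1, 8.63 in WT2 and 8.23 in WT1 with IL-4, and 8.51 in KO2, 8.34 in KO1, 9.01 in WT2 and 7.29 in WT1 without IL-4. Nmi, a partner of Ifi35, had log2 signals of 7.43 in KO2, 7.70 in KO1, 7.70 in WT2 and 7.56 in WT1 with IL-4, and 7.71 in KO2, 7.20 in KO1, 7.51 in WT2 and 6.96 in WT1 without IL-4. The WT2 minus WT1 differences were 1.06 for Parp14 (adjusted p = 0.172 from limma) and 0.35 for Nmi (adjusted p = 0.612 from limma).

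Among the sensors, Ifi204, Ifih1 and Zbp1 were called higher in WT2 and Dhx58, Eif2ak2, Adar and Znfx1 were not. Ifi204, a sensor of DNA from a cluster of related genes, gave log2 signals of 11.74 in KO2, 11.99 in KO1, 12.82 in WT2 and 10.00 in WT1 with IL-4, and 12.13 in KO2, 12.32 in KO1, 12.76 in WT2 and 10.83 in WT1 without IL-4. WT2 was the highest and WT1 the lowest clone, 5.20-fold apart (adjusted p = 0.00939 from limma). Ifih1, which detects long double-stranded RNA, gave log2 signals of 11.39 in KO2, 11.29 in KO1, 11.62 in WT2 and 10.35 in WT1 with IL-4, and 11.72 in KO2, 11.64 in KO1, 11.57 in WT2 and 9.98 in WT1 without IL-4. The KO and WT2 arrays lay close together and above both WT1 arrays, and WT2 was 2.70-fold higher than WT1 (adjusted p = 0.0245 from limma). Zbp1, which binds nucleic acids in the Z form and can start cell death, gave log2 signals of 6.21 in KO2, 6.39 in KO1, 7.24 in WT2 and 5.79 in WT1 with IL-4, and 6.51 in KO2, 6.96 in KO1, 7.12 in WT2 and 5.57 in WT1 without IL-4. It was below background on both WT1 arrays, and WT2 was at least 1.39-fold higher (adjusted p = 0.0216 from limma). For Eif2ak2, the RNA-activated kinase that stops translation, and for Adar, which edits double-stranded RNA, the WT2 minus WT1 differences were both 0.76 (adjusted p = 0.151 and 0.137 from limma). Both WT1 arrays were the lowest of 8 for each of them, too.

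The GTPases of the Gbp and Irg families act at the membranes of vacuoles that hold bacteria or parasites. Irgm1, a regulator of this family, gave log2 signals of 12.13 in KO2, 11.94 in KO1, 12.55 in WT2 and 10.37 in WT1 with IL-4, and 12.30 in KO2, 12.13 in KO1, 12.77 in WT2 and 10.52 in WT1 without IL-4. WT2, the KO clones and WT1 did not overlap, in this order from high to low, and WT2 was 4.64-fold higher than WT1 (adjusted p = 0.00616 from limma). Gbp7 gave log2 signals of 7.52 in KO2, 7.97 in KO1, 8.57 in WT2 and 6.85 in WT1 with IL-4, and 10.03 in KO2, 10.08 in KO1, 10.03 in WT2 and 8.33 in WT1 without IL-4. WT2 was 3.26-fold higher than WT1 (adjusted p = 0.0143 from limma), and each clone was lower with IL-4 than without. Igtp and Irgm2 were near the background and below it on both WT1 arrays. Igtp had log2 signals of 6.68 in KO2, 6.52 in KO1, 7.01 in WT2 and 6.69 in WT1 with IL-4, and 6.66 in KO2, 7.28 in KO1, 7.06 in WT2 and 5.52 in WT1 without IL-4, and Irgm2 of 5.96 in KO2, 6.30 in KO1, 7.20 in WT2 and 5.69 in WT1 with IL-4, and 6.74 in KO2, 6.48 in KO1, 6.54 in WT2 and 6.37 in WT1 without IL-4. Igtp was at least 1.26-fold higher in WT2 than in WT1. No fold is given for Irgm2, whose WT2 array without IL-4 was below background too. Neither gene passed (adjusted p = 0.256 for Igtp and 0.306 for Irgm2 from limma).

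Lgals3bp, a secreted glycoprotein, gave log2 signals of 14.09 in KO2, 13.29 in KO1, 13.54 in WT2 and 12.01 in WT1 with IL-4, and 14.30 in KO2, 13.03 in KO1, 12.95 in WT2 and 12.18 in WT1 without IL-4. WT1 was the lowest and KO2 the highest clone, and the WT2 minus WT1 difference was 1.15 (95% interval 0.53 to 1.77, adjusted p = 0.0854 from limma). Tap1, which moves peptides into the endoplasmic reticulum for presentation, had a difference of 0.40 (adjusted p = 0.45 from limma). Taken on the arrays of one treatment, the WT2 minus WT1 differences of the 46 members had a median of 1.29 with IL-4 and 1.46 without IL-4. Over the 46 members these differences correlated between the treatments (Pearson's r = 0.829, Spearman's rho = 0.811). The points share their clones, and this is a description.

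**Figure D3:**
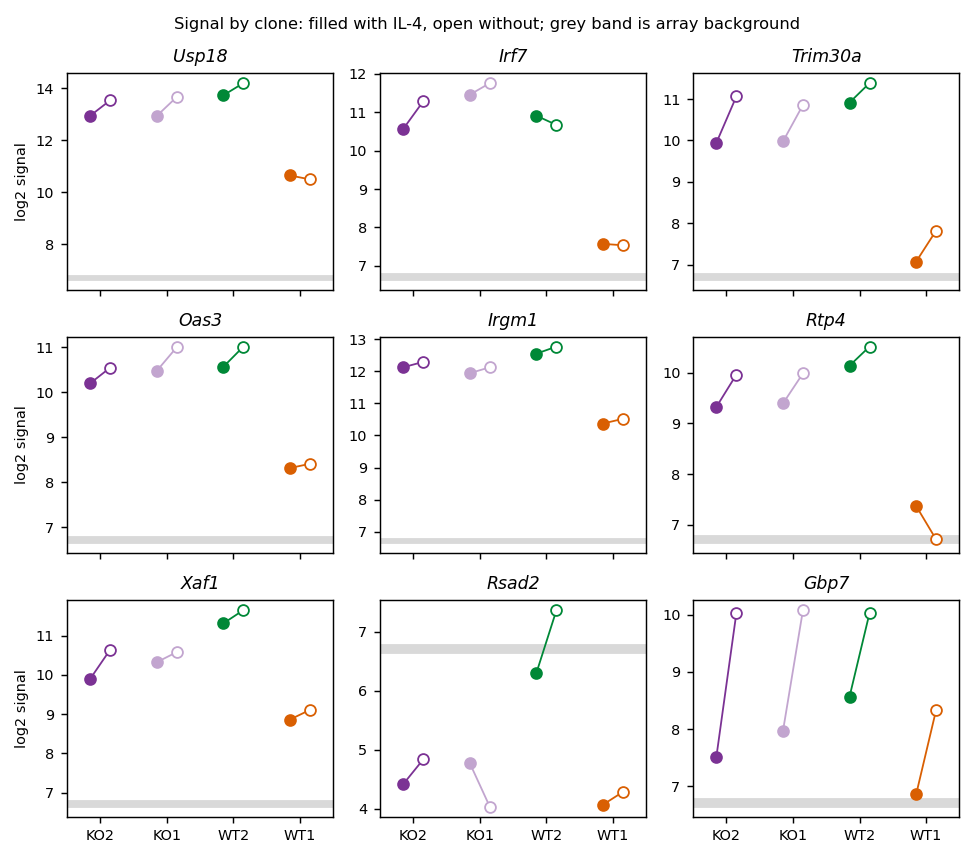
Log2 signal of 9 members on the 8 arrays, by clone from KO2 to WT1, with IL-4 (filled) and without IL-4 (open), and with the range of array backgrounds as a grey band. WT1 lies below the other clones for the first 7 genes shown, Rsad2 is above background only in WT2 without IL-4, and Gbp7 is lower with IL-4 in every clone.

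Genes upstream of the members were followed from a list of 43 pathway genes, 42 with a named probe set. The median WT2 minus WT1 difference over the 42 was 0.04, with 22 differences positive and 20 negative. Of the 42, 2 were called higher and none was called lower, against 0.928% and 1.04% of all probe sets. Among the 12 upstream sensors and adaptors, 6 differences were positive and 6 negative, between −1.06 and 1.70. The 2 called genes were sensors or their partners and are themselves known to respond to interferon. Ddx58, the sensor RIG-I of short viral RNA, gave log2 signals of 11.98 in KO2, 12.52 in KO1, 12.77 in WT2 and 11.66 in WT1 with IL-4, and 12.61 in KO2, 13.16 in KO1, 13.33 in WT2 and 11.04 in WT1 without IL-4. Trim25, the ubiquitin ligase that acts on it, gave log2 signals of 13.11 in KO2, 12.81 in KO1, 13.63 in WT2 and 12.00 in WT1 with IL-4, and 13.17 in KO2, 13.04 in KO1, 13.62 in WT2 and 12.41 in WT1 without IL-4. WT1 was the lowest clone on the arrays of both genes, and WT2 was 3.25-fold higher than WT1 for Ddx58 (adjusted p = 0.0394 from limma) and 2.68-fold for Trim25 (adjusted p = 0.0271 from limma).

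Of 11 interferon ligand genes, 8 were below background on all 8 arrays, Ifna1 was above it on 1 and Ifnl3 on 6, and Ifna5 was above it on all. Ifnb1, the first interferon many cells make, had log2 signals between 4.73 and 5.57, and Ifng between 5.21 and 6.29. None of the 11 ligands was called between the wild-type clones, with differences between −0.34 and 0.42. The receptor chains Ifnar1 and Ifnar2 differed by −0.16 and −0.12 between WT2 and WT1 (adjusted p = 0.805 and 0.857 from limma). Irf9, the subunit of the interferon-activated factor that binds DNA, differed by 0.05 (95% interval −0.47 to 0.57, adjusted p = 0.95 from limma). Tyk2 differed by −0.05 and Jak1 by 0.69 (adjusted p = 0.948 and 0.228 from limma). None of the 6 receptor genes and 4 kinase or Irf9 genes passed. Ptpn6, a phosphatase that restrains this signalling, had the most negative difference of the list, −1.63 (95% interval −2.39 to −0.87, adjusted p = 0.0563 from limma). Its log2 signals were 12.99 in KO2, 13.12 in KO1, 11.97 in WT2 and 14.28 in WT1 with IL-4, and 13.45 in KO2, 13.38 in KO1, 12.52 in WT2 and 13.47 in WT1 without IL-4. WT2 was thus its lowest clone, and a link to the members was not tested. Interferon protein was not measured.

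The 2 knockout clones did not show such a split. No member was called between KO2 and KO1, where 0.0495% of all probe sets were called, and at an unadjusted p under 0.05 1 member was higher and 3 were lower in KO2 (2.08% and 1.62% of all probe sets). The median KO2 minus KO1 difference over the 46 members was −0.12, and the differences ran between −0.71 and 1.03. Lgals3bp had the most positive one, 1.03 (95% interval 0.41 to 1.64, adjusted p = 0.98 from limma), and its KO2 arrays were above its KO1 arrays under both treatments. Oasl2 had the most negative one, −0.71 (95% interval −1.22 to −0.21, adjusted p = 1 from limma), followed by Irf7 with −0.68 (adjusted p = 1 from limma). Differences of Helz2 and Cmpk2 were 0.26 and 0.24, with overlapping arrays. Ifit1 was below background on both KO2 arrays and on the KO1 array without IL-4, so no fold is given.

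The comparison of knockout with wild type asks whether loss of Gpr137b goes with a change of these genes. No member was called, with IL-4 or without IL-4, where 0.0315% and 0.018% of all probe sets were called. At an unadjusted p under 0.05, 1 member was higher in KO with IL-4 (1.84% of all probe sets) and 4 were higher without IL-4 (2.11%). None was lower at that threshold (1.69% of all probe sets with IL-4 and 2.3% without IL-4). The median KO minus WT difference of the members was 0.14 with IL-4, with 32 of 46 positive, and 0.47 without IL-4, with 41 of 46 positive. The KO arrays lay above the WT arrays for 5 members with IL-4 (17.9% of all probe sets) and for 16 of 46 (34.8%) without IL-4 (14.1% of all probe sets). They lay below the WT arrays for 2 members with IL-4 (15.3% of all probe sets) and for none without IL-4 (16.3% of all probe sets). The 16 included Irf7, Oas2, Ifih1, Gbp7, Eif2ak2 and Lgals3bp. For Gbp7 and Eif2ak2 the margin over WT2 was slight. Their lowest KO log2 signals without IL-4 were 10.030 and 12.06, against 10.029 and 12.05 in WT2. Irf7 had the largest difference, 1.77 ± 1.15 (SE) with IL-4 (adjusted p = 1 from limma) and 2.42 ± 1.15 (SE) without IL-4 (adjusted p = 0.993 from limma). Rtp4 and Trim30a followed without IL-4 with 1.36 each (adjusted p = 0.993 from limma for both).

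The size of these differences and the sign of their median depended on which wild-type clone was used. When WT2 was left out and the KO clones were set against WT1 alone, the median was 0.67 with IL-4 and 1.21 without IL-4, and 43 and 46 of 46 members were higher in KO. Then 8 members were called higher with IL-4 (0.234% of all probe sets) and 8 without IL-4 (0.153% of all probe sets). Irf7, Usp18, Trim30a, Rtp4 and Oas3 were called under both treatments, with Ifi204, Oas2 and Irgm1 only with IL-4 and Ifih1, Cmpk2 and Mx2 only without IL-4. The difference between these treatments was not tested on these clones. Against WT1 alone, Irf7 differed by 3.44 with IL-4 and by 3.98 without it (limma adjusted p = 0.0209 and 0.0143). Usp18 differed by 2.29 with IL-4 and by 3.11 without it (limma adjusted p = 0.0113 and 0.00484).

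When WT1 was left out and the KO clones were set against WT2 alone, the median was −0.35 with IL-4 and −0.22 without IL-4, and 35 and 28 of 46 members were lower in KO. Under each treatment 1 member was called lower (0.378% of all probe sets with IL-4 and 0.117% without IL-4). With IL-4 it was Cmpk2, at −1.56 (adjusted p = 0.0492 from limma). Without IL-4 it was Rsad2, which was below background on both KO arrays and at least 1.56-fold lower in KO than in WT2 (adjusted p = 0.032 from limma). Rtp4 then had a difference of −0.54 without IL-4 and Trim30a of −0.42, where they had 3.26 and 3.14 against WT1. Irf7 stayed positive against WT2, at 0.11 with IL-4 and 0.85 without IL-4. Leaving out KO1 gave medians of 0.04 with IL-4 and 0.41 without IL-4, and leaving out KO2 gave 0.25 and 0.51, with no member called. In each of these fits the lone clone of a genotype is assumed to vary like the pair of the other.

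**Figure D4:**
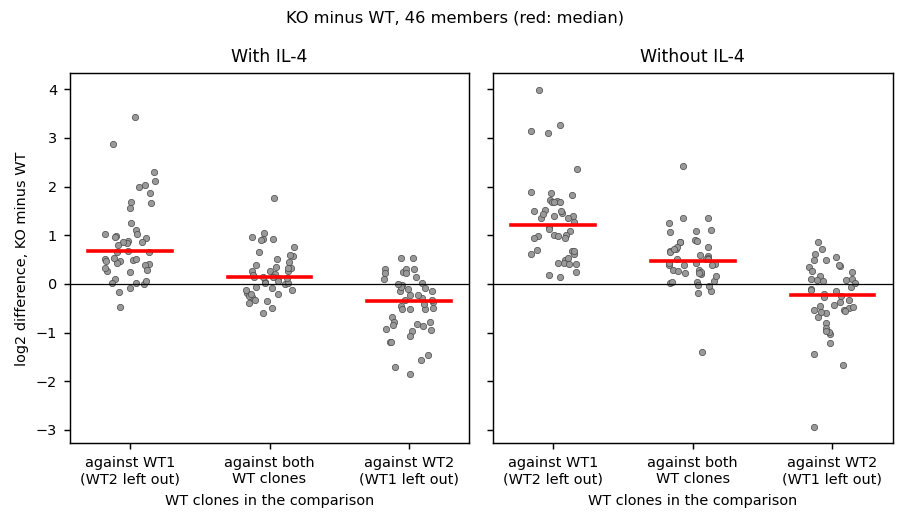
KO minus WT difference in log2 signal of 46 members (points, spread sideways for sight) with IL-4 (left) and without IL-4 (right), against WT1 alone, both WT clones or WT2 alone, with red bars at the medians. The medians are 0.67, 0.14 and −0.35 with IL-4, and 1.21, 0.47 and −0.22 without IL-4.

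In the fit without a block, no member was called for IL-4 in KO cells (0.0315% of all probe sets called) or in WT cells (0.036%). None was called in the mean over both genotypes (0.167%) or in the difference of the IL-4 effects between genotypes (0% of all probe sets). This fit counts differences between the clones of a genotype in its spread. At an unadjusted p under 0.05, 2 members were lower with IL-4 in KO (1.35% of all probe sets) and 3 in WT (2.11%), and none was higher in KO (1.42%) or in WT (1.74%). In the mean 1 was higher and 3 were lower (2.18% and 2.43% of all probe sets). No member had an unadjusted p under 0.05 for the difference (1.02% of all probe sets above 0 and 0.504% below). The median IL-4 effect over the members was −0.35 in KO, with 38 of 46 negative, and 0.00 in WT, with 23 negative and 23 positive. The median of the difference, KO minus WT, was −0.26. By clone the median was −0.33 in KO2, −0.25 in KO1, −0.19 in WT2 and 0.08 in WT1, and 41, 36, 30 and 21 of 46 members were lower with IL-4 in these clones. In KO, the arrays with IL-4 lay below those without for 27 members (58.7%), against 17.1% of all probe sets, and above for 2, against 17.4%. In WT they lay below for 2 members (13.9% of all probe sets) and above for 2 (11.4%). WT2 lay above WT1 by a median of 1.19 over the members, so WT arrays can overlap even where both clones moved alike, as for Gbp7. The counts in KO and WT can therefore not be set against each other.

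In all 4 clones, 13 members (28.3%) were lower with IL-4, against 8.44% of all probe sets. These 13 were Isg15, Oasl1, Oas2, Oas3, Mx1, Gbp3, Gbp7, Irgm1, Tap1, Xaf1, Trim30a, Sp100 and Adar. Of these, Oasl1, Mx1 and Gbp3 were below background on every array, and Isg15 was above it on 1 array only, WT2 without IL-4. Ifit2 alone was higher with IL-4 in all 4 clones (7.93% of all probe sets). Its IL-4 effects were 0.28 in KO2, 0.43 in KO1, 0.37 in WT2 and 0.61 in WT1, and its mean effect was 0.42 ± 0.16 (SE, adjusted p = 0.972 from limma).

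Gbp7 had the largest IL-4 effect of the members. Its effect was −2.51 in KO2, −2.11 in KO1, −1.46 in WT2 and −1.48 in WT1, so that every clone was lower with IL-4. In KO the arrays with IL-4 lay at 7.52 and 7.97, against 10.03 and 10.08 without IL-4, with no overlap. In WT they lay at 8.57 and 6.85, against 10.03 and 8.33 without IL-4, and overlapped, with WT1 lower under both treatments. The mean effect was −1.89 ± 0.44 (SE), 0.269-fold, with an adjusted p of 0.331 from limma. When each clone was compared with itself, by entering the clone as a fixed block, the same effect had an adjusted p of 0.00302 from limma, and 0.207% of all probe sets were called lower. With the clone as a random block it did not pass (adjusted p = 0.147 from limma), so that the call depends on the kind of block. The random block assumed the same correlation between the arrays of a clone, 0.144, for every probe set. In KO the fixed block gave an adjusted p of 0.0167 from limma, against 1 without the block and 0.629 with the random block, with 0.0225% of all probe sets called lower by the fixed block. In WT the fixed block gave 0.0911 and the random block 0.945 from limma. Gbp7 was the only member that passed with the fixed block, and no member passed with the random one. The difference of its effects, KO minus WT, was −0.84 ± 0.88 (SE, adjusted p = 1 from limma).

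Among members above background on any array, Trim30a and Oas2 came next, with mean IL-4 effects of −0.80 ± 0.91 and −0.67 ± 0.45 (SE, adjusted p = 1 from limma for both), and neither passed with the fixed block (0.111 and 0.471 from limma). Nmi and Parp14 had mean effects of 0.25 and 0.20 (adjusted p = 1 from limma for both). Over the 31 members above background on all arrays, the differences of effect, KO minus WT, ran between −0.84 for Gbp7 and 0.10 for Herc6 (adjusted p = 1 from limma for both). In the pathway list, Jak2, a kinase of several cytokine receptors including that of interferon gamma, gave log2 signals of 12.74 in KO2, 13.48 in KO1, 13.12 in WT2 and 13.16 in WT1 with IL-4, and 11.77 in KO2, 11.82 in KO1, 11.40 in WT2 and 12.00 in WT1 without IL-4. It was higher with IL-4 in all 4 clones, and the mean effect was 1.38 ± 0.21 (SE), 2.60-fold (adjusted p = 0.0678 from limma, 0.0296 with the fixed clone block and 0.0341 with the random one). No other pathway gene passed in these fits of the mean effect.

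**Figure D5:**
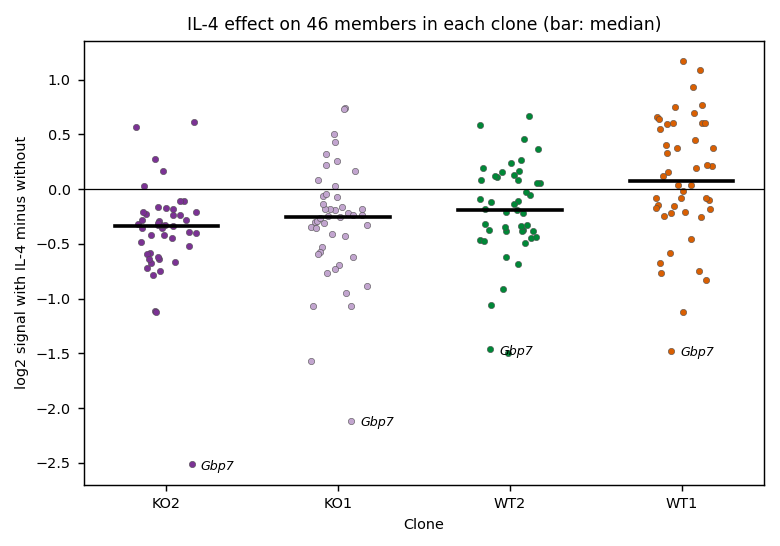
IL-4 effect, log2 signal with minus without IL-4, of 46 members (points, spread sideways for sight) in each clone, with bars at the medians. The medians are −0.33 in KO2, −0.25 in KO1, −0.19 in WT2 and 0.08 in WT1, and Gbp7 lies lowest or near lowest in every clone.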

How the data were processed

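RNA of 2 KO and 2 WT clones, with and without IL-4, was hybridized to 8 arrays. The authors normalized the raw files by SST-RMA in the Transcriptome Analysis Console, and RMA is the tool that the submitters' notes list. Intensities were deposited on a linear scale, although log2 values had been planned for, so log2 was taken first. Of 28846 rows in the table, 6640 control rows were left out of tests, and of the 22206 others 2634 are unnamed here. The number of arrays limits the precision.

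Members, lists and tests were chosen with earlier results of these data known. Probe sets were matched by symbol or older synonym. Group means were fitted over the 8 arrays in limma 3.58.1 (R 4.3.3), without a block, with Benjamini-Hochberg adjustment over all probe sets. WT2 against WT1 and KO2 against KO1 came from a fit with 1 mean per clone and 1 IL-4 effect per genotype. Where a group was above background on none of its arrays, the fold is a bound that sets the brighter group's mean against the array background of the dim one. No such fold is given where an array of the brighter group was below background too. The code was tested on simulated data.

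The 2 arrays of a clone are paired by the labels. Their deviations from the group means had a correlation of 0.161 for KO and 0.354 for WT clones. A clone block, fixed or random, was an alternative, as were quantile normalization, a filter that drops the dimmest 40% of probe sets, a trended and robust eBayes, single treatments and leaving out each clone. Per-array values were given for called members and for the 3 largest differences in each direction of a comparison among members above background, and for Stat2, Ddx58, Trim25, Ptpn6 and Jak2 after their values were seen. Promoters are from RefSeq (GRCm38.p6), and the sources used here do not give the build of the array annotation.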

Additional observations from a re-analysis of the deposited data

Results flagged for a closer look

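For 5 members above background on all 8 arrays, IL-4 went with a lower signal in both KO clones and a higher one in both WT clones. The difference of the IL-4 effects, KO minus WT, was −0.70 for Oas1a, −0.65 for Irf7, −0.55 for Ifih1, −0.50 for Parp9 and −0.67 for Dtx3l on the log2 scale. The opposite signs alone singled them out. In the fit of the difference none passed (adjusted p = 1 from limma for each). Such opposite effects occurred for 5 of 31 members above background on all arrays (16.1%) and for 564 of 8732 probe sets above it on all arrays (6.46%).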

How the results depend on the processing

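Differences between WT2 and WT1 rest on 2 arrays of each clone. Of the 24 members called there, 23 were called after quantile normalization, 22 of the 22 tested after the dimmest 40% were dropped, and 24 with a trended and robust eBayes. The exception was Oasl1 (adjusted p = 0.0524 from limma). The members' median difference was 1.42 without the dimmest probe sets and 1.46 on the arrays without IL-4, against 1.19. Trended and robust eBayes called 1238 probe sets between the WT clones, against 438, and 27 between the KO clones, against 11. Members above background on all arrays numbered 30 with the median of the negative controls as background, against 31. Both cutoffs lie close together, so this count is no independent check of detection. Of the named genes' differences under other settings, 422 kept their direction and side of the threshold, 17 changed sign, 14 came to pass and 1 no longer passed.

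With the clone as a fixed replicate block, 35 probe sets were called for IL-4 in WT, 25 for IL-4 in KO and 128 for the mean IL-4 effect, against 8, 7 and 37 without a block. As a random block, the clone gave 13 in WT and 13 in KO. The fixed block called 1 member, Gbp7, in KO and in the mean, and it changed no other call of a member. The random block called no member (Gbp7 adjusted p = 0.629 in KO and 0.147 in the mean, from limma). Without the dimmest probe sets the counts were 5 for IL-4 in WT, 4 for IL-4 in KO, 3 for KO against WT with IL-4 and 1 without IL-4, against 8, 7, 7 and 4. Quantile normalization gave 4 for IL-4 in KO and 2 for KO against WT without IL-4, and a trended and robust eBayes gave 12 for IL-4 in KO.

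Leaving out 1 clone at a time, the probe sets called ran between 0 and 26 for IL-4 in WT, 0 and 47 for IL-4 in KO, 3 and 155 for the mean IL-4 effect, 0 and 143 for KO against WT with IL-4, and 0 and 100 without IL-4. The members called ran between 0 and 1 for IL-4 in KO and for the mean effect, where Gbp7 passed without WT1 or without WT2, and between 0 and 8 for KO against WT under each treatment. The members' median ran between −0.19 (without WT1) and 0.078 (without WT2) for IL-4 in WT, −0.35 and −0.25 for IL-4 in KO, and −0.50 and −0.20 for the difference.

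These genes changed sign when a clone was left out. IL-4 effects ran between −0.053 and 1.17 for Igtp in WT, −0.28 and 0.50 for Nmi in KO and −0.13 and 0.53 for Parp14 in the mean, and differences of effect between −0.037 and 0.23 for Herc6 and −0.42 and 0.47 for Ifi204. KO minus WT with IL-4 ran between −0.014 and 2.11 for Oas2, −0.95 and 2.88 for Trim30a, −1.84 and 0.85 for Ifit1, −1.07 and 0.43 for Irgm2 and −1.56 and 1.04 for Cmpk2. Without IL-4 it ran between −0.54 and 3.26 for Rtp4, −0.42 and 3.14 for Trim30a, −2.93 and 0.15 for Rsad2 and −0.68 and 0.61 for Helz2. Most of these turned with WT1 or WT2 left out. The cause was not tested. Igtp, Ifit1, Irgm2, Cmpk2 and Rsad2 were below background on some arrays, so their values here are fitted differences and not measured sizes.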
